A study of Mus musculus with 4 samples.

Results

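Toll-like receptor 4 (Tlr4) and 9 partner genes were followed in granulosa cells (GCs), which line the follicle around its oocyte and nurse it. The 10 genes were chosen by name from 55385 genes in the count table: the receptors Tlr4, Tlr2 and Tlr3, the coreceptors Ly96 and Cd14, the serum factor Lbp, the adaptors Myd88 and Ticam1, and the leukocyte genes Adgre1 and Ptprc. Bulk RNA-seq had been done on GCs of Kunming mice aged 12 to 14 days, whose preantral follicles (follicles before a fluid cavity forms) were grown in vitro for 6 days. Follicles of the NT4 group (2 libraries) received neurotrophin-4 (NT-4), a ligand of the receptor TRKB, and those of the Control group (2 libraries) did not. By the methods, both groups shared a culture medium with FSH, fetuin, insulin-transferrin-selenium and serum albumin, and the cells were the cumulus GCs that remained after the oocytes had been released. The study's text names a dose of NT-4 chosen for its later experiments, and the labels of these libraries do not repeat it. The samples came from independent experiments, and the number of follicles behind each library is not given.

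TLR4 is the receptor for bacterial lipopolysaccharide. LBP, an acute phase protein of serum, passes lipopolysaccharide to CD14, which hands it to a complex of TLR4 with the secreted protein MD-2 (gene Ly96), without which TLR4 does not respond. Signals then run through MYD88 to NF-kB and the MAP kinases, or through TRIF (gene Ticam1) to type I interferon genes. TLR2 reads bacterial lipoproteins together with TLR1 or TLR6, and TLR3 reads double-stranded RNA and uses TRIF. These genes are best known from macrophages, while Toll-like receptors have also been described in cumulus cells around ovulation. F4/80 (gene Adgre1) marks mouse macrophages, and CD45 (gene Ptprc) marks nearly all leukocytes.

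Upstream sequence from RefSeq (GRCm38.p6) was matched for 5 of the 10 genes by symbol. The 250 bases before the RefSeq start are shown for Ticam1 and Myd88, the adaptors with the highest levels per length below, and for Ptprc, with the lowest. The Ticam1 window was chr17:56276768-56277017, the Myd88 window chr9:119340019-119340268 and the Ptprc window chr1:138175306-138175555, each printed 5′ to 3′ on the minus strand of its gene. GENCODE models begin further upstream than these RefSeq starts, so the Myd88 and Ptprc windows lie wholly, and the Ticam1 window in part, inside the gene spans given below. Capitals mark every match on either strand to GAGGAA (a core of PU.1 sites), GGGCGG (the GC box) or TATAAA (the TATA box).
Ticam1: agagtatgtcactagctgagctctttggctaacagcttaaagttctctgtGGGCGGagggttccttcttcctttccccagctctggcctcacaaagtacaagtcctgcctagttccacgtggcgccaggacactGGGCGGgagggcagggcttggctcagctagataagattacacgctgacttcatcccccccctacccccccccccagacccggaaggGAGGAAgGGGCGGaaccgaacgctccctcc
Myd88: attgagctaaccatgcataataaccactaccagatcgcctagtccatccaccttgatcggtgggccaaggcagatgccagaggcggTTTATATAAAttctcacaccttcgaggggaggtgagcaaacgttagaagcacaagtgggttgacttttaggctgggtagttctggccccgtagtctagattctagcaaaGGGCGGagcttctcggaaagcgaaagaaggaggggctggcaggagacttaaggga
Ptprc: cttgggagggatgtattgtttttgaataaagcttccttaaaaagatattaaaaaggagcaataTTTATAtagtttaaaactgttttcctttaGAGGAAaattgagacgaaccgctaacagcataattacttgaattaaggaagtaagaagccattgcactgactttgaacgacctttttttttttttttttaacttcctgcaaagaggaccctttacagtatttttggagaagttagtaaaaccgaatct
GGGCGG matched 3 times before Ticam1, 1 time before Myd88 and 0 times before Ptprc. GAGGAA matched 1 time before Ticam1, 0 times before Myd88 and 1 time before Ptprc. TATAAA had 0 matches before Ticam1, 1 before Ptprc and 2 before Myd88, where the matches overlap on opposite strands. The matched windows not shown were those of Tlr2 and Tlr3. GGGCGG matched 2 times before Tlr2 and 0 times before Tlr3, and GAGGAA and TATAAA matched 0 times before either. For Ptprc the RefSeq set held 2 starts, and the one nearest to the GENCODE start was searched. Of 32817 promoter windows of this length, 32.72% held GGGCGG, 23.25% GAGGAA and 12.37% TATAAA. A match of letters is a description and not a bound site.

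Tlr4 (ENSMUSG00000039005) lay at chr4:66827584-66930284 on the plus strand of GRCm38, and its exons overlapped no other gene. Tlr2 (ENSMUSG00000027995) was at chr3:83836272-83841767 and Tlr3 (ENSMUSG00000031639) at chr8:45395665-45411080. Ly96 (ENSMUSG00000025779) was at chr1:16688051-16709611, Cd14 (ENSMUSG00000051439) at chr18:36725067-36726798 and Lbp (ENSMUSG00000016024) at chr2:158306493-158332852. Myd88 (ENSMUSG00000032508) was at chr9:119335934-119341411, Ticam1 (ENSMUSG00000047123) at chr17:56269319-56276786, Adgre1 (ENSMUSG00000004730) at chr17:57358691-57483527 and Ptprc (ENSMUSG00000026395) at chr1:138062861-138175708. Exons of Tlr3 overlapped those of Gm45542 by 381 bases and exons of Myd88 overlapped those of Acaa1a by 290 bases, both on opposite strands. Whether counting used strand is not stated, so reads in those overlaps may belong to either gene.

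The 4 libraries held 49520092 to 78704020 counts, and low counts piled up at multiples of 4, so that 1 read pair was taken as 4 counts and the depth as 12380023 to 19676005 read pairs. All 15 granulosa markers listed (among them Fshr, Foxl2 and Amh) lay above 3 read pairs in every library, with summed levels of 14887 CPM (counts scaled to the library total) in Control 1 and 18102 CPM in Control 2, against 13031 CPM in NT4 1 and 19528 CPM in NT4 2. Oocyte markers (12 genes) summed to between 94.1 and 137 CPM with overlapping groups. Of 19259 genes tested with the quasi-likelihood test of edgeR, 0 (0%) passed an adjusted p of 0.05. Without adjustment 383 genes (1.99%) were under 0.05, and 208 (1.08%) also met the fold criterion of the study's methods, a fold above 2 or under 0.5. Both NT4 libraries lay above both Control libraries in 2301 genes (11.9%) and below them in 2817 (14.6%). The 2 NT4 and 2 Control libraries cannot reach p = 0.05 in a permutation of groups. The p-values below set the group difference against a spread between these samples that edgeR pools across genes.

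Among the 10 genes, Tlr4 was the one that met the criterion of the methods, at a higher level with NT-4. Of the 8 genes that passed edgeR's filter on low counts, 0 passed an adjusted p of 0.05 and 1 met the criterion, beside 1.08% of all genes. DESeq2, edgeR's exact test and limma voom also called 0 of the 10 at an adjusted p of 0.05. Tlr4 and Cd14 had both NT4 libraries above both Control libraries, beside 11.9% of all genes, and Tlr3 had both below, beside 14.6%. The median log2 fold change (NT4 over Control) of the 8 genes was 0.12, and that of all genes tested was 0.0045. Adgre1 and Ptprc were left out by the filter and are given by their reads.

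**Figure D1:**
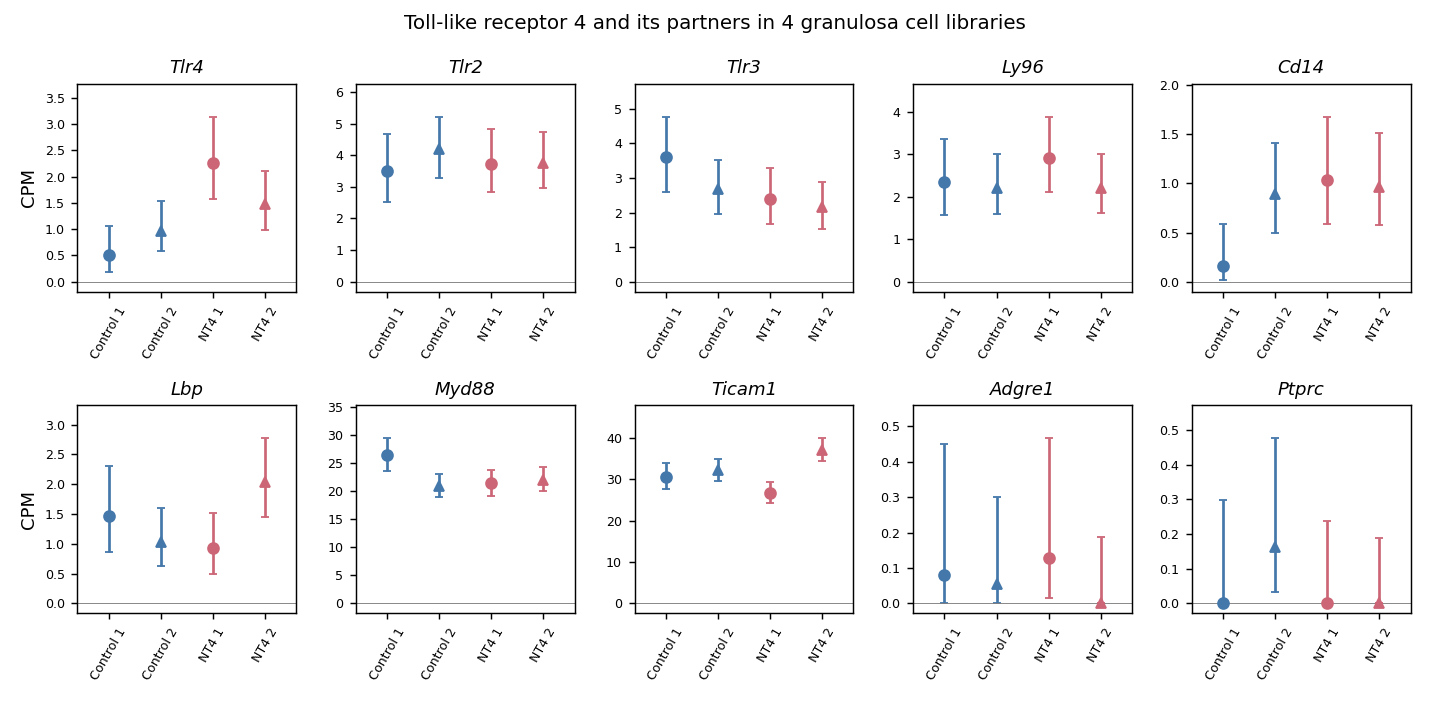
Level of each of the 10 genes in CPM (linear axes from 0) in Control 1, Control 2 (blue), NT4 1 and NT4 2 (red), with exact Poisson 95% intervals on read pairs, which cover counting error alone. Tlr4 had 0.505 and 0.963 CPM in the Control libraries and 2.26 and 1.49 CPM in the NT4 libraries, a difference that did not pass the adjusted test, while Adgre1 and Ptprc stayed at or under 0.163 CPM.

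The receptors were compared first. Tlr4 had 0.505 CPM in Control 1 and 0.963 in Control 2, against 2.26 in NT4 1 and 1.49 in NT4 2, or 25, 71, 140 and 117 counts. Both NT4 libraries were above both Control libraries, with NT4 1 highest and Control 1 lowest. On counting error alone, the 95% interval of Control 2 (0.579 to 1.54 CPM) overlapped that of NT4 2 (0.987 to 2.12 CPM), and that of Control 1 (0.178 to 1.05 CPM) did not overlap that of NT4 1 (1.57 to 3.14 CPM). The Control mean was 0.734 ± 0.324 CPM and the NT4 mean 1.87 ± 0.546 CPM (SD, n = 2), a log2 fold change of 1.35 (SE 0.49) with an unadjusted p of 0.0361 and an adjusted p of 0.9999 in edgeR. The study drew Tlr4 as a GC receptor in its plot of ligand and receptor pairs between oocytes and GCs of this culture day, so Tlr4 was not chosen independently of these samples. Without Control 1 the log2 fold change was 0.96 (unadjusted p = 0.119 in edgeR) and without NT4 1 it was 1.04 (unadjusted p = 0.156), so that the criterion was no longer met. Without Control 2 it was 1.92 (unadjusted p = 0.0131 in edgeR), and without NT4 2 it was 1.61 (unadjusted p = 0.0435). Each such fit leaves 1 library in a group and assumes that it varies like the libraries of the other group, so these p-values describe the fit and are weak evidence for or against the criterion.

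Tlr2, the lipoprotein receptor, had 3.49 CPM in Control 1 and 4.19 in Control 2, against 3.71 in NT4 1 and 3.76 in NT4 2. The NT4 libraries lay between the Control libraries, and the log2 fold change was −0.02 (SE 0.25, unadjusted p = 0.934 in edgeR). Tlr3, the receptor for double-stranded RNA, had 3.59 CPM in Control 1 and 2.67 in Control 2, against 2.40 in NT4 1 and 2.16 in NT4 2. Both NT4 libraries were lower, by 0.43 on the log2 scale (log2 fold change −0.43, SE 0.30), with an unadjusted p of 0.197 in edgeR. Leaving out a library moved that value between −0.62 and −0.22.

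The partners of TLR4 in sensing lipopolysaccharide had smaller log2 fold changes than Tlr4, a gap that was not itself tested. Ly96, which encodes MD-2, had 2.34 CPM in Control 1 and 2.21 in Control 2, against 2.92 in NT4 1 and 2.21 in NT4 2. The groups overlapped, and the log2 fold change was 0.19 (SE 0.30, unadjusted p = 0.549 in edgeR). Cd14 had 0.162 CPM in Control 1 and 0.895 in Control 2, against 1.03 in NT4 1 and 0.966 in NT4 2. Control 1 stood far below the other libraries with 8 counts, or 2 read pairs, against 66, 64 and 76 counts. The log2 fold change of Cd14 was 0.91 (SE 0.81, unadjusted p = 0.312 in edgeR). It was 0.16 without Control 1 (unadjusted p = 0.786 in edgeR) and 2.65 without Control 2 (unadjusted p = 0.0114, adjusted p = 0.904), so the value rested on Control 1. Lbp, which encodes the protein that loads lipopolysaccharide onto CD14, had 1.47 CPM in Control 1 and 1.03 in Control 2, against 0.936 in NT4 1 and 2.03 in NT4 2. The NT4 libraries held both the lowest and the highest level of Lbp, and the log2 fold change was 0.28 (SE 0.51, unadjusted p = 0.604 in edgeR).

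The adaptors were read next. Myd88, shared by most Toll-like receptors, had 26.3 CPM in Control 1 and 20.9 in Control 2, against 21.4 in NT4 1 and 22.0 in NT4 2, and its log2 fold change was −0.10 (SE 0.17, unadjusted p = 0.596 in edgeR). Ticam1, which encodes TRIF, had 30.6 CPM in Control 1 and 32.2 in Control 2, against 26.7 in NT4 1 and 37.1 in NT4 2. Its NT4 libraries lay on either side of the Control libraries, and the log2 fold change was 0.04 (SE 0.21, unadjusted p = 0.838 in edgeR). For both adaptors the groups overlapped.

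**Figure D2:**
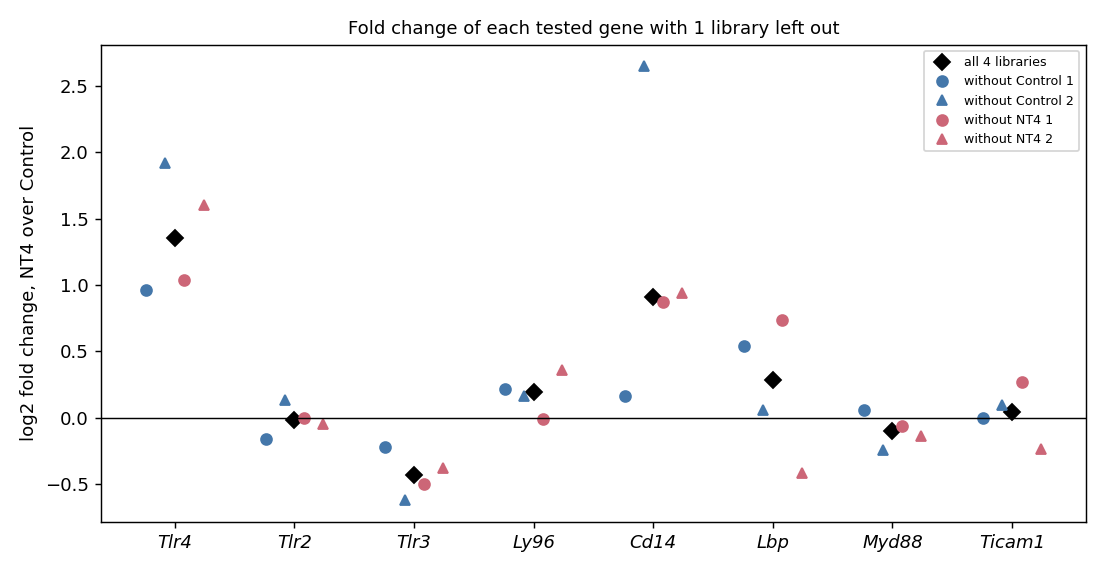
Log2 fold change of NT4 over Control for the 8 genes tested, from all 4 libraries (black) and with each library left out in turn (blue, a Control library left out; red, an NT4 library left out). Tlr4 stayed between 0.96 and 1.92, Cd14 ran from 0.16 to 2.65, and Tlr2, Ly96, Lbp, Myd88 and Ticam1 crossed 0.

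Levels of different genes were compared per length, as CPM per kb of exon. The order of the means over 4 libraries was Ticam1 (10.6), Myd88 (8.79), Ly96 (2.37), Tlr2 (1.26), Tlr3 (0.52), Cd14 (0.441), Lbp (0.283), Tlr4 (0.235), Adgre1 (0.0204) and Ptprc (0.0022 CPM per kb). Among 16968 protein-coding genes with a read, 73.27% lay below Ticam1, 44.17% below Ly96, 24.27% below Tlr4, 8.4% below Adgre1 and 0.36% below Ptprc. Over the libraries, Ticam1 (8.91 to 12.4 CPM per kb) and Myd88 (8.11 to 10.2) overlapped. Ly96 (2.16 to 2.86 CPM per kb), Tlr2 (1.16 to 1.39) and Tlr3 (0.415 to 0.690) each lay apart from the next. Tlr3, Cd14 (0.0933 to 0.596 CPM per kb), Lbp (0.194 to 0.421) and Tlr4 (0.0909 to 0.407) each overlapped the next in order, so neighbours there did not differ beyond their spread. With all exons joined, Tlr3 and Tlr4 themselves did not overlap. Tlr4 per kb was 0.474 times Tlr3 over the libraries together (exact conditional 95% interval 0.363 to 0.616, counting error alone). By library that ratio ran from 0.128 in Control 1 and 0.344 in Control 2 to 0.887 in NT4 1 (0.542 to 1.447) and 0.647 in NT4 2 (0.389 to 1.064), and both NT4 intervals include 1. With the longest transcripts it was 1.02 in NT4 1, so that Tlr3 and Tlr4 overlapped at that length. Tlr4 lay above Adgre1 (0 to 0.0399 CPM per kb) in every library, and Adgre1 and Ptprc overlapped.

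**Figure D3:**
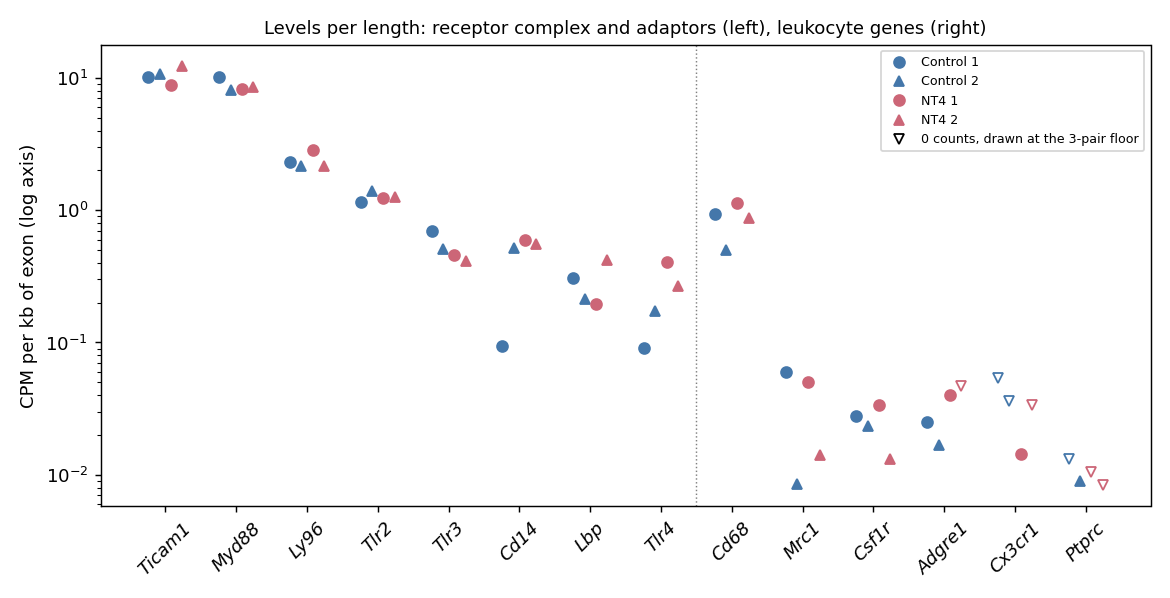
CPM per kb of exon on a log axis in each library (blue, Control; red, NT4), for the receptors, coreceptors and adaptors on the left and leukocyte genes on the right, with open symbols where a gene had 0 counts and is drawn at the level of 3 read pairs. The lowest Tlr4 level was 0.0909 and the highest Adgre1 level 0.0399 CPM per kb, while Cd68 lay above Tlr4.

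Tlr4 was next set beside the macrophage genes in the same libraries, since macrophages carry Tlr4, Ly96, Cd14 and Adgre1 together. In bulk RNA, fewer cells of a type and less RNA per cell cannot be told apart. Adgre1 had 1 read pair in Control 1 and 1 in Control 2, with 2 in NT4 1 and 0 in NT4 2, whereas Tlr4 had 6.25, 17.75, 35 and 29.25. Every library lay under 3 read pairs, the level up to which a count of 0 was read, and the groups overlapped for Adgre1. Summed over the libraries, 88 read pairs of Tlr4 stood against 4 of Adgre1, which is 12.8 times as much per kb (exact conditional 95% interval 4.83 to 48.1, counting error alone). By library the ratio was 3.50 in Control 1 (0.424 to 161), 10.5 in Control 2 (1.66 to 437) and 10.2 in NT4 1 (2.62 to 87.5). In NT4 2, with Adgre1 taken at 3 read pairs, it was 5.63. The exact conditional lower 95% limit there, from the observed 29 against 0 read pairs, was 4.30. The interval of Control 1 included 1, so at its 6 read pairs of Tlr4 a difference was not detectable there.

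Ptprc had 0 read pairs in Control 1 and 3 in Control 2, against 0 in NT4 1 and 0 in NT4 2. With Ptprc taken at 3 read pairs, the ratio of Tlr4 per kb was 6.59 in Control 1, 38.5 in NT4 1 and 31.9 in NT4 2. In Control 2 the ratio was 19.8 (5.77 to 105). From the observed 0 read pairs of Ptprc, the exact conditional lower 95% limits were 3.88 in Control 1, 29.7 in NT4 1 and 24.3 in NT4 2. The exons of Ptprc span 18.313 kb when all its transcripts are joined and 5.74 kb in the longest transcript. With the latter length for both genes, the summed ratio of 88 to 3 read pairs was 41.3 (13.7 to 204), against 96.7 (32.0 to 478) with joined exons. All 3 pairs of Ptprc came from Control 2, and without NT4 1 the ratio with joined exons was 58.2. With the longest transcripts, the ratios to 3 read pairs were 2.82 in Control 1, 16.4 in NT4 1 and 13.6 in NT4 2. The exact conditional lower 95% limit from 0 read pairs was then 1.66 in Control 1. Tlr4 per kb was 0.102 times Ly96 (0.078 to 0.134), below it in every library. Toward Cd14 the summed ratio was 0.508 (0.358 to 0.727), or 0.656 (0.462 to 0.938) with the longest transcripts. By library the ratio to Cd14 was 0.935 in Control 1 (6 read pairs against 2) and 0.682 in NT4 1 (0.368 to 1.319), both with intervals that include 1, while it was 0.351 in Control 2 (0.169 to 0.735) and 0.476 in NT4 2 (0.258 to 0.898), both under 1. With the longest transcripts it was 1.21 in Control 1 and 0.614 in NT4 2 (0.333 to 1.159), where the interval then included 1. Tlr4 was thus below Cd14 beyond counting error in 2 of 4 libraries with joined exons. With the longest transcripts it was so in Control 2 alone (0.453, 0.218 to 0.949).

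The wider macrophage list gave a mixed picture. Of its 20 genes, 12 were at or under 3 read pairs in every library, among them Adgre1, Csf1r (the receptor for the macrophage growth factor CSF1), Cx3cr1, Itgam, Aif1 and Spi1, and Cd163 and Tyrobp had 0 counts in all 4. Tlr4 per kb was 10.2 times Csf1r (88 against 9 read pairs, 5.12 to 23.0). The genes above 3 read pairs in every library were Mertk, Mpeg1, Cd68 and Lyz2. Fcer1g, C1qb, Mrc1 and C1qa were above it in some libraries. C1qb had 17 and 4 counts in the Control libraries and 15 and 16 in the NT4 libraries. Mrc1 had 19 and 4 against 20 and 7, and C1qa had 15 and 0 against 11 and 8. Mertk, a receptor for dying cells that other phagocytic cells also use, made up most of the list's sum. The list summed to 32.9 CPM in Control 1 and 22.6 in Control 2, against 29.5 in NT4 1 and 23.1 in NT4 2, with overlapping groups, of which Mertk held 26.1, 19.2, 22.9 and 16.9 CPM. Tlr4 was 0.284 times Cd68 per kb (0.205 to 0.395), the lysosomal protein that is also found outside macrophages. Cd68 had 1.17 CPM in Control 1 and 0.624 in Control 2, against 1.42 in NT4 1 and 1.11 in NT4 2, so that its lowest level was in Control 2 and that of Tlr4 in Control 1. Mpeg1, a pore-forming protein of phagocytes, had 2.12 CPM in Control 1 and 1.60 in Control 2, against 2.42 in NT4 1 and 3.06 in NT4 2. Lyz2, a lysozyme, had 1.05 CPM in Control 1 and 0.407 in Control 2, against 1.23 in NT4 1 and 1.25 in NT4 2. Control 2 thus stood apart for Lyz2, while Control 1 lay nearer to the NT4 libraries. For Mpeg1 and Lyz2 both NT4 libraries were above both Control libraries, as for Tlr4. Their log2 fold changes were 0.59 (SE 0.33) for Mpeg1 and 0.80 (SE 0.56) for Lyz2, with unadjusted p of 0.128 and 0.21 in edgeR. Their part in the Tlr4 difference was not tested. Of the 9 macrophage genes tested, 4 had a log2 fold change above 0 and 5 below, with a median of −0.05 (0.0045 over all genes). Both NT4 libraries were above in 2 (beside 11.9% of all genes) and below in 1 (beside 14.6%). Of the 9, 0 passed the adjusted test and 1 met the criterion (beside 1.08%), Fcer1g. That gene had 23 and 33 counts in the Control libraries and 8 and 8 in the NT4 libraries. Its NT4 libraries lay under 3 read pairs and it passed the filter through the Control group alone, so no fold is given.

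Other leukocyte lists held few reads. The list of genes common to leukocytes (10 genes) summed to between 7.04 and 9.21 CPM with overlapping groups, mostly from Lcp1 and Dock2, and 6 of its genes were at or under 3 read pairs in every library. Lcp1, an actin-bundling protein, had 5.29 CPM in Control 1 and 4.88 in Control 2, against 5.61 in NT4 1 and 6.30 in NT4 2, so that both NT4 libraries were above both Control libraries (log2 fold change 0.25, SE 0.22). All 4 genes of that list that were tested had a log2 fold change above 0, as had 9819 of all 19259 genes tested. Their median was 0.33 (0.082 without Control 2 and 0.11 without NT4 2), beside 0.0045 over all genes. Of these 4, Coro1a and Laptm5 had at most 5.25 read pairs in any library. Over the whole list, both NT4 libraries were above in 1 gene, Lcp1 (beside 11.9% of all genes). They were below in 1 (beside 14.6%), the untested Rac2, with 8 and 4 counts in the Control libraries and 0 in both NT4 libraries. The part of leukocyte RNA in the Tlr4 difference was not tested. Neutrophil genes summed to between 0 and 0.828 CPM, mast cell genes to between 0 and 0.127 CPM and B cell genes to between 0.393 and 1.39 CPM. Of 9 T and NK cell genes, 7 had 0 counts in every library, and Lck made up nearly all of their 3.07 to 5.76 CPM. Endothelial genes (26.3 to 36.0 CPM over 10 genes) and surface epithelial genes (34.1 to 43.2 CPM over 7 genes) overlapped between groups in their sums. Of the 10 endothelial genes, 3 had both NT4 libraries above (beside 11.9% of all genes) and 1 had both below (beside 14.6%). Log2 fold changes were above 0 in 7 of them and below 0 in 3, with a median of 0.19. The part of endothelial RNA in the Tlr4 difference was not tested. Among the endothelial genes, 1 of 10 met the criterion (beside 1.08% of all genes), Tek, an angiopoietin receptor, with 8 and 14 counts in the Control libraries and 59 and 34 in the NT4 libraries. Kdr, a VEGF receptor, went the other way with 55 and 44 counts in the Control libraries and 31 and 0 in the NT4 libraries.

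The theca and stroma list moved with the groups in the same direction as Tlr4. Its 12 genes summed to 1542 CPM in Control 1 and 1482 in Control 2, against 2165 in NT4 1 and 1703 in NT4 2, so that both NT4 libraries were above both Control libraries and NT4 1 was highest, as for Tlr4. All 12 had a log2 fold change above 0, with a median of 0.38 beside 0.0045 over all genes, and 7 of 12 had non-overlapping groups with NT4 above (beside 11.9% of all genes). At an unadjusted p under 0.05 stood 5 of 12 (beside 1.99%), which were Acta2, Dcn, Tcf21, Col3a1 and Lum, and 0 passed the adjusted test or the criterion of the methods in edgeR. Cyp17a1, the enzyme of androgen synthesis that defines theca cells, had 73.1 CPM in Control 1 and 134 in Control 2, against 135 in NT4 1 and 170 in NT4 2. Its lowest level was in Control 1, as for Tlr4, and its highest in NT4 2. Without NT4 1 the list's median was 0.19, and without the other libraries in turn it was 0.34 to 0.51. The part of theca and stroma RNA in the Tlr4 difference was not tested.

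**Figure D4:**
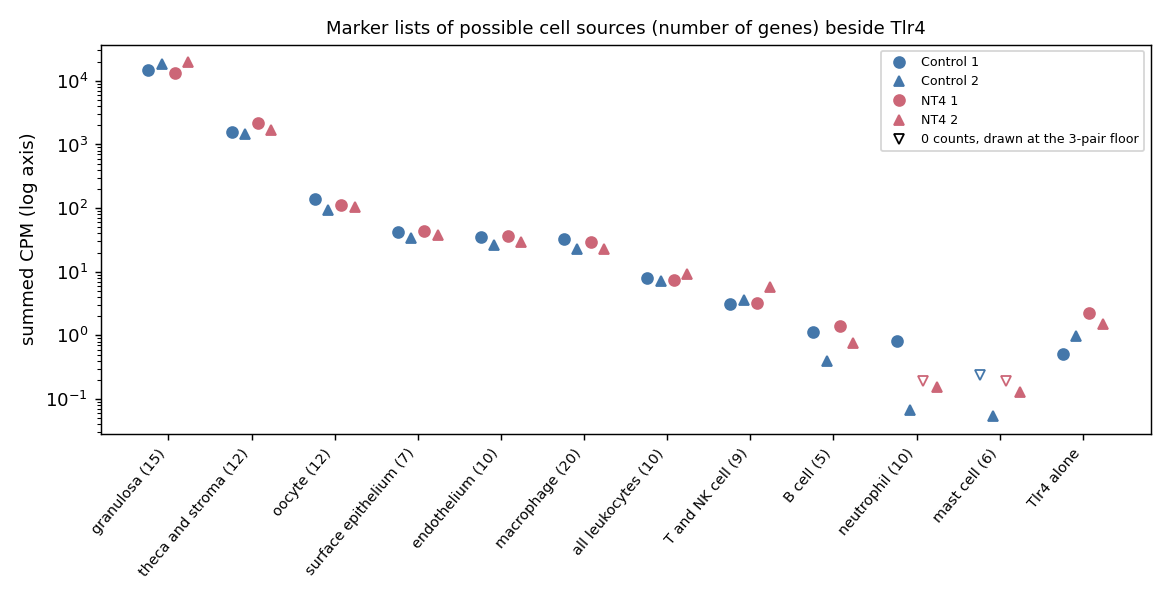
Summed CPM (log axis) of 11 lists of cell type markers, with the number of genes in each, and of Tlr4 alone, in every library (blue, Control; red, NT4; open symbols, 0 counts drawn at the level of 3 read pairs). The theca and stroma sums of the NT4 libraries (2165 and 1703 CPM) lay above those of the Control libraries (1542 and 1482 CPM), and the macrophage sums overlapped.

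The other genes of the pathway were read from 8 lists by role, 92 genes in all, of which 67 passed the filter. None passed an adjusted p of 0.05 or the criterion of the methods (0 of 67 in edgeR), and 2, Dcn and Vcam1, were under 0.05 without adjustment, beside 1.99% of all genes. Log2 fold changes were above 0 in 40 and below 0 in 27, with a median of 0.05. Both NT4 libraries were above both Control libraries in 12 and below in 8, beside 11.9% and 14.6% of all genes.

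The list of other receptors held 11 genes, 10 receptors and Ly86, which encodes MD-1, the secreted partner of CD180. Of the 11, 3 passed the filter, and 6 (Tlr7, Tlr8, Tlr9, Tlr11, Tlr12 and Ly86) were at or under 3 read pairs in every library, of which Tlr8, Tlr11 and Ly86 had 0 counts in all. Tlr6 had a log2 fold change of −0.38 (SE 0.37) and Tlr1 of 0.29 (SE 0.43), both partners of TLR2 and close copies of each other whose reads may be split between them. Tlr5, the flagellin receptor, had 0 counts in Control 1 and 18 in Control 2, against 29 in NT4 1 and 42 in NT4 2 (unadjusted p = 0.209 in edgeR). Tlr13, a mouse receptor for bacterial ribosomal RNA, had 31 counts in NT4 1 and 0 elsewhere. Cd180, a relative of TLR4 best known from B cells, had at most 0.323 CPM.

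The 4 chaperones that bring Toll-like receptors to the membrane were all tested. Hsp90b1, which encodes GP96, needed for folding of most of these receptors, had a Control mean of 1542 ± 34.9 CPM and an NT4 mean of 1453 ± 12.2 CPM (SD, n = 2), a log2 fold change of −0.07 (SE 0.10). Its exons overlap other genes. Unc93b1, which carries TLR3 to endosomes, had a log2 fold change of 0.36 (SE 0.24, unadjusted p = 0.181 in edgeR), which was 0.056 without NT4 2. Cnpy4 had a log2 fold change of 0.09 (SE 0.12) and Cnpy3, which assists TLR4 at the cell surface, of −0.03 (SE 0.15).

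The list of ligands of TLR4 made by the body held 9 genes, 8 for proteins described as ligands and Has2, the enzyme that makes the ligand hyaluronan. Of the 9, 7 were tested (all but S100a8 and S100a9) and 6 of these had a log2 fold change above 0, with a median of 0.25 that includes Has2. Dcn, a matrix proteoglycan, had 53.3 CPM in Control 1 and 47.6 in Control 2, against 64.6 in NT4 1 and 65.7 in NT4 2. Both NT4 libraries were higher (log2 fold change 0.39, SE 0.13, unadjusted p = 0.0267 and adjusted p = 0.9999 in edgeR). Dcn was also a member of the theca and stroma list, so the lists are not separate evidence. Bgn, a related proteoglycan, had a log2 fold change of 0.37 (SE 0.22), which was 0.012 without NT4 1. Fn1 (fibronectin) had one of 0.25 (SE 0.16), which was 0.086 without Control 1, Hmgb1 (a chromatin protein) one of 0.46 (SE 0.39) and Vcan (versican) one of −0.11 (SE 0.14). For Hmgb1, Control 1 stood at 26.2 CPM while the other libraries were between 54.1 and 62.5.

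The other 3 adaptors were Tirap, which bridges TLR4 to MYD88 (log2 fold change 0.38, SE 0.32), Ticam2, which bridges TLR4 to TRIF (−0.25, SE 0.60), and Sarm1 (−0.05, SE 0.58). Ticam2 shares exons with Tmed7 on the same strand, so its reads are uncertain. All 17 kinases and ubiquitin enzymes were tested, with 7 log2 fold changes above 0 and 10 below. Irak1 and Irak2, kinases that bind MYD88, had log2 fold changes of 0.15 (SE 0.11) and −0.41 (SE 0.26), and that of Irak2 was −0.037 without Control 2. Map3k7, which encodes TAK1, the kinase upstream of NF-kB, had a Control mean of 143 ± 3.19 CPM and an NT4 mean of 142 ± 2.91 CPM (SD, n = 2). Ube2n, a ubiquitin enzyme of the same step, had a log2 fold change of 0.15 (SE 0.12). Tab2, a partner of TAK1, had 163.9 CPM in Control 1 and 160.4 in Control 2, against 163.2 in NT4 1 and 90.8 in NT4 2, so that its log2 fold change of −0.34 (SE 0.27) rested on NT4 2 and was 0.010 without it.

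All 10 transcription factors were tested, and 6 had a log2 fold change above 0. Rela, an NF-kB subunit, had a log2 fold change of 0.03 (SE 0.17), Rel of −0.24 (SE 0.20) and Irf3, the factor below TRIF, of −0.01 (SE 0.17). Jun and Fos, subunits of AP-1, had log2 fold changes of 0.32 (SE 0.27) and 0.39 (SE 0.33), and for both NT4 2 was highest while NT4 1 lay between the Control libraries. Of 13 inhibitors, 11 were tested and 8 had a log2 fold change above 0. Nfkbia, the NF-kB inhibitor that NF-kB itself induces, had 62.0 CPM in Control 1 and 51.7 in Control 2, against 67.80 in NT4 1 and 67.85 in NT4 2 (log2 fold change 0.28, SE 0.14, unadjusted p = 0.1 in edgeR). Socs3, an inhibitor of cytokine signalling, had a log2 fold change of 0.38 (SE 0.24), and both its NT4 libraries were also above both Control libraries. Dusp1 (0.50, SE 0.34), Zfp36 (0.42, SE 0.29) and Tnip1 (0.05, SE 0.12) overlapped between groups.

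Of 25 genes known as targets of TLR4 in macrophages, 12 were tested and 10 had 0 counts in every library, which were Il6, Tnf, Il10, Il12b, Ccl3, Ccl4, Ccl5, Ifnb1, Csf2 and Csf3. A count of 0 allows up to 3 read pairs, or 0.152 to 0.242 CPM by library. Vcam1, an adhesion molecule, had 32.0 CPM in Control 1 and 36.3 in Control 2, against 46.5 in NT4 1 and 51.2 in NT4 2. Both NT4 libraries were higher, with a log2 fold change of 0.54 (SE 0.15, unadjusted p = 0.0148 and adjusted p = 0.9999 in edgeR). Ccl2, a chemokine for monocytes, had 8 counts in Control 1 and 5 in Control 2, against 82 in NT4 1 and 14 in NT4 2, so that NT4 1 held most of its fitted log2 fold change of 2.73 (SE 1.16, unadjusted p = 0.0626 in edgeR), which was 0.68 without that library. Both Control libraries lay under 3 read pairs of Ccl2, so the fitted size depends on the prior count. Lcn2, a siderophore-binding protein, had 3.09 CPM in Control 1 and 1.15 in Control 2, against 0.678 in NT4 1 and 1.05 in NT4 2, and its log2 fold change was −1.25 (SE 0.58, unadjusted p = 0.0811 in edgeR). Nos2, an inducible nitric oxide synthase, had a log2 fold change of −0.08 (SE 0.20) and Irf1 of 0.05 (SE 0.16), both with overlapping groups.

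**Figure D5:**
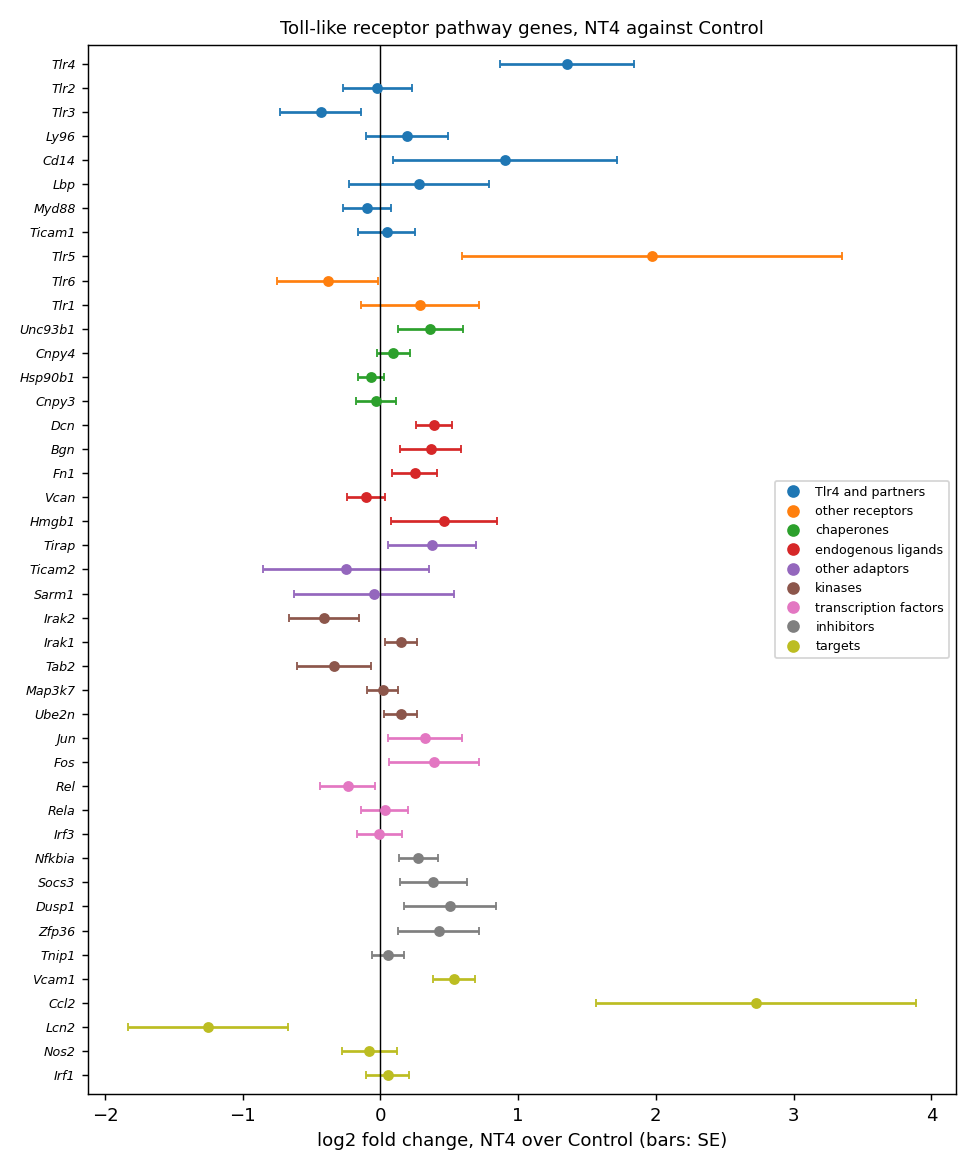
Log2 fold change of NT4 over Control (points, with SE bars, n = 2 libraries per group) for the 8 tested genes of Tlr4 and its partners and for the tested genes named from the 8 pathway lists, coloured by role. Tlr4 lies at 1.35, Ccl2 at 2.73 with an SE of 1.16, and the kinases and transcription factors named lie between −0.41 and 0.39.

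The genes whose pattern over the 4 libraries was most like that of Tlr4 were found by the root mean square distance of their centred log2 CPM, among 12546 protein-coding genes with a mean of at least 1 CPM. The 5 nearest were Rps27rt (0.217), Bcl3 (0.228), Gm20696 (0.236), Hvcn1 (0.237) and Mapk1ip1 (0.258 log2 units). Each had its lowest level in Control 1 and its highest in NT4 1, a likeness that the distance selects for. The groups of Mapk1ip1 overlapped, with 9.37 CPM in Control 2 and 8.72 in NT4 2, unlike those of Tlr4. Rps27rt is a copy of a ribosomal protein gene, so its reads are uncertain. It had 22.5 CPM in Control 1 and 49.05 in Control 2, against 107.6 in NT4 1 and 50.7 in NT4 2. Bcl3, an IkB family member that binds NF-kB subunits, had 0.545, 1.06, 1.68 and 1.30 CPM in the same order, and Hvcn1, a proton channel known from phagocytes and sperm, had 0.646, 0.881, 1.82 and 1.37 CPM. Of the other 7 tested genes among the partners, Cd14 was nearest to Tlr4 (0.519) and Ly96 next (0.694), followed by Tlr2 (0.760), Ticam1 (0.827), Myd88 (0.88), Lbp (0.977) and Tlr3 (1.02 log2 units). With 4 libraries these distances describe the libraries and carry no test.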

How the data were processed

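Bulk RNA-seq of GCs was analysed in 2 NT4 and 2 Control libraries. By the methods, the authors trimmed reads with Cutadapt 1.9, mapped them with HISAT2 to mouse Ensembl v99 (GRCm38; mm10 in the submitters' notes) and estimated expression with StringTie and ballgown from stranded paired reads of 150 bases. The files as deposited hold expected counts per gene, in whole numbers and without normalization. How they were made from StringTie output, and whether strand was used, is not stated. Of genes with counts from 1 to 12, 45.4% to 46.2% per library lay at multiples of 4, so 1 read pair was taken as 4 counts. The table and the single-library files held identical counts in 4 of 4 libraries. Samples are stated to come from independent experiments.

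Counts were tested in R 4.3.3 with the two-sided quasi-likelihood test of edgeR 4.0.16 (TMM normalization, default filter on low counts, group alone, Benjamini-Hochberg adjustment over all 19259 genes tested), which was tested on simulated data with 200 changed genes. CPM values are counts scaled to the library total, with SD over 2 libraries, and a count of 0 was read as up to 3 read pairs. CPM per kb used the joined exons of GENCODE M21 (GRCm38), or the longest transcript as an alternative. Ratios carry exact conditional, and levels exact Poisson, 95% intervals on read pairs, which cover counting error alone, since PCR duplicates are not independent molecules.

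Named were all 10 genes, and per pathway list up to 3 tested genes with the smallest p and the 2 others with the highest CPM per kb. Also named were the 5 genes nearest to Tlr4 in centred log2 CPM (prior count 2, or 0.5 as an alternative). The 10 genes, the 8 pathway lists and the 11 lists of cell types were chosen with earlier results of these data known. Genes of these cell type lists named one by one, and list members outside the rule, were chosen after their values were seen. Alternatives were DESeq2 size factors, library totals, counts divided by 4, testing without the low-count filter or with 1 CPM required in 2 libraries, the replicate number as a block, each library left out, limma 3.58.1 voom, edgeR's exact test and the Wald test of DESeq2 1.42.0. Upstream sequences came from RefSeq (GRCm38.p6). Figures were drawn with matplotlib 3.10.9.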

Additional observations from a re-analysis of the deposited data

How the results depend on the processing

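Tlr4 kept its direction under all 13 alternatives. Its log2 fold change was 1.29 to 1.38 with all libraries and 0.96 to 1.92 with 1 library left out, and its adjusted p ranged from 0.91 to 1.0. The groups share replicate numbers, but no label says that these mark a pairing. With the replicate block the value was 1.38 (unadjusted p = 0.0476), and deviations of same-numbered libraries correlated at 0.14 (Pearson) and 0.26 (Spearman) across 19259 genes. The block changed no call among the 10 genes and left 180 genes at the criterion of the methods against 208. The number of the 10 genes at the criterion was 1 and ranged from 0 to 2 with 1 library left out (0 without Control 1 or NT4 1; 2, Tlr4 and Cd14, without Control 2), and at an adjusted p of 0.05 it was 0 in every setting.

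Over all genes, the criterion was met by 345 without a filter, 87 with a filter at 1 CPM, 119 with counts divided by 4, 334 with DESeq2, 312 with edgeR's exact test and 341 to 512 with 1 library left out. An adjusted p under 0.05 was reached by 0 genes in the test reported (383 without adjustment), 10 without a filter, 63 with DESeq2, 59 with edgeR's exact test, 0 with limma voom and 0 to 37 with 1 library left out (12 without Control 1 and 37 without Control 2). The cause was not tested.

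With 1 library left out, log2 fold changes crossed 0 for Tlr2 (−0.16 to 0.13), Ly96 (−0.0086 to 0.36), Lbp (−0.41 to 0.74), Myd88 (−0.24 to 0.061) and Ticam1 (−0.24 to 0.27). They also did for Tlr1 (−0.28 to 0.69), Cnpy3 (−0.16 to 0.079), Vcan (−0.26 to 0.021), Hmgb1 (−0.021 to 1.19), Tirap (−0.0080 to 0.90), Ticam2 (−0.83 to 0.45), Sarm1 (−0.96 to 0.49), Tab2 (−0.80 to 0.010), Map3k7 (−0.025 to 0.055, and −0.0041 with library totals), Jun (−0.10 to 0.64), Fos (−0.12 to 0.76), Rela (−0.17 to 0.27), Irf3 (−0.16 to 0.13), Dusp1 (−0.014 to 0.88), Tnip1 (−0.018 to 0.12), Nos2 (−0.37 to 0.16) and Irf1 (−0.046 to 0.16). Values that kept their sign but moved by more than 1.5 times included Tlr6 (−0.18 without Control 1), Rel (−0.014 without NT4 2), Nfkbia (0.17 without Control 2), Socs3 (0.097 without Control 2), Zfp36 (0.041 without NT4 2) and Lcn2 (−0.40 without Control 1). The ratio of Tlr4 to Adgre1 per kb was 8.60 to 15.9 with 1 library left out and 17.5 with the longest transcript as length. The 5 genes nearest to Tlr4 were the same 5 with a prior count of 0.5. Lists with no gene left under a filter gave no value. Depth limits Adgre1 and Ptprc, at 0 to 3 read pairs a library, and Cd14 and Tlr4 in Control 1, at 2 and 6.25.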
